A study of Homo sapiens with 2 samples.

Results

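DNA methylation was described at 10 genes that control passage from G1 into S phase: the cyclins CCND1, CCND2, CCND3, CCNE1 and CCNA1, the kinases CDK4 and CDK6, the inhibitors CDKN1A and CDKN1B, and the pocket protein RB1. A CpG belonged to a gene when the authors' table named that gene as the promoter at the position or, outside intergenic rows, as the gene there. These are 10 of 30889 gene symbols in the annotation. The rule found 1980 positions, of which 1789 had 10 or more reads in each library and were kept, out of 2523693 such CpGs in all. The other positions held 190 with fewer reads and 1 whose methylated reads could not be recovered as a whole number.

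The cells were SH-SY5Y, a long-established line from human neuroblastoma, a tumour of the sympathetic nervous system. One group received DMSO, the solvent, and the other received Mdivi-1, a compound used to inhibit the splitting of mitochondria. Its dose and duration are not given in the sources used here. Each group held 1 library of bisulfite-converted DNA enriched by methyl capture, so no replicate checks any difference below, and culture, library and treatment cannot be told apart. All differences are Mdivi-1 minus DMSO, in percentage points, between mean levels over CpGs. The value after ± is the counting error (1 binomial standard error, CpGs taken as independent), not a spread between samples. Nearby CpGs can share reads, so the counting error can be larger where only this value is given. Genome positions are hg19 unless another build is named.

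In G1, cyclins of the D type bind CDK4 or CDK6, and these kinases begin to phosphorylate RB1. Phosphorylated RB1 releases E2F transcription factors, which turn on genes for DNA replication, among them cyclin E, which acts with CDK2. CDKN1A (p21) and CDKN1B (p27) bind and restrain cyclin-CDK complexes. CpG islands are short stretches dense in CpGs that overlie many promoters and usually lack methylation where the gene can be used. Shores and shelves are the flanks next to an island, where intermediate levels are common.

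The low methylation at the starts of several of these genes can be read beside the DNA itself. The RefSeq promoter table of assembly GRCh38.p14 held entries for 8 of the 10 genes, and CCND1 and CCND2 had none. Windows were placed on the deposited positions by the spacing of their CpGs alone, with no conversion of coordinates. The windows of CCNE1 and of RB1 itself and a window of CCND3 were not placed. The RB1 stretch below comes from the window of the divergent transcript RB1-DT. The stretches below lie outside annotated exons and untranslated regions and were chosen as 1 kinase, 2 inhibitors, 1 cyclin and RB1. Capitals mark the CpGs kept at that depth, and every stretch is written 5′ to 3′ on the strand named.
CDKN1A, plus strand, chr6:36678663-36678707: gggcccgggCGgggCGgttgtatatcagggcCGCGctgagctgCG
CDKN1B, plus strand, chr12:12717126-12717261: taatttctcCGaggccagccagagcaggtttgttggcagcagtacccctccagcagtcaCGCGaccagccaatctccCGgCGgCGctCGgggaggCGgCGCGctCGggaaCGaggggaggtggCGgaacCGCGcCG
CDK6, minus strand, chr7:92833964-92834209: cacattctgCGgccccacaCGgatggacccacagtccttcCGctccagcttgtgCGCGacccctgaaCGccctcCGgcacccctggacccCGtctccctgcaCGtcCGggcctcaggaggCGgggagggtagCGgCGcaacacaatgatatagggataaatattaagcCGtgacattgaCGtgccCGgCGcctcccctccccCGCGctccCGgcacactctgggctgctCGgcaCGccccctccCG
CCNA1, plus strand, chr13:36431705-36431819: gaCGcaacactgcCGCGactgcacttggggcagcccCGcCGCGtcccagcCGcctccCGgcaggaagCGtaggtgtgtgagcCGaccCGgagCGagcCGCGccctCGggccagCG
RB1, shared with the divergent transcript RB1-DT, minus strand, chr13:48303705-48303745: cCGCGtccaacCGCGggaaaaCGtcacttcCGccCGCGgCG

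In the CDKN1A stretch, 5 CpGs were measured. Summed over these CpGs, 0 of 61 DMSO read calls and 0 of 88 Mdivi-1 read calls were methylated. If the calls are independent, these zeros allow levels of up to 4.92% and 3.41%, taken as 3 of the total. The 5 CpGs lie close together and can share reads. The limits can then be as wide as 3 of 14 and 3 of 19 reads, the counts at the deepest CpG. The 16 CpGs of the CDKN1B stretch had mean levels of 0.694% in the DMSO and 0.877% in the Mdivi-1 library. The 23 CpGs of the CDK6 stretch had 1.62% and 1.08%. In the CCNA1 stretch, 16 CpGs had 1.77% and 1.38%. In the RB1 stretch, 9 CpGs had 0.794% and 0.926%. All 5 stretches were thus nearly free of methylation in both libraries. This does not hold for the whole CCNA1 window: past its stretch, 5′ UTR CpGs reached 45.5% in the DMSO and 34.6% in the Mdivi-1 library. The RB1 stretch holds the letters TTTCCCGC on its other strand, which match an E2F motif and overlap no GC box (GGGCGG, either strand). The CpG inside this match had 0 methylated of 14 reads in each library, which allows up to 21.4%. These 8 letters occur on either strand in 1.63% of 35116 RefSeq promoter windows of the same length, and a match does not show binding.

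Over all 1789 CpGs of the 10 genes, mean methylation was 28.8% in the DMSO and 29.2% with Mdivi-1. The levels differed by 0.457 points, beside 0.460 points over the whole table, where the means were 42.6% and 43.1%. Its counting error was 0.136 points if CpGs are read independently, and 9.54 points if every read covered all CpGs and was wholly methylated or not. These are taken as the bounds of the counting error, and neither covers variation between cultures. Of the 10 genes' CpGs, 731 were higher, 633 lower and 425 equal, and of all measured CpGs 44.4% were higher and 38.7% lower. Mean coverage of the 1789 CpGs was 41.5 reads in the DMSO and 49.7 reads in the Mdivi-1 library.

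No single CpG of the 10 genes was called. The two-sided Fisher exact test, with Benjamini-Hochberg adjustment over 2523693 CpGs and a difference of at least 20 points, called 0 of 1789 CpGs of these genes, and it called 16 CpGs or 0.000634% of the whole table. At an unadjusted p under 0.05, 21 of the 1789 CpGs passed, 13 higher and 8 lower, beside 2.02% of all CpGs (1.29% higher and 0.735% lower). The smallest p was 0.00316, with an adjusted p of 1. Depth bounds what could be called: at the genes' median coverage of 36 and 42 reads, a CpG starting from 0% or 50% needed a difference of 50 points. Changes below that size at single CpGs were not detectable at this depth.

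**Figure D1:**
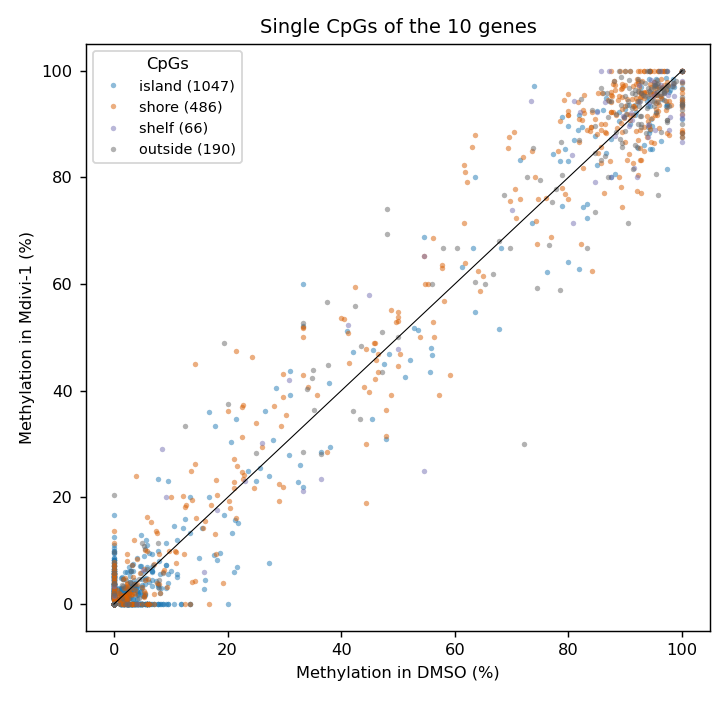
Methylation of each CpG of the 10 genes in the DMSO library (x axis, %) and the Mdivi-1 library (y axis, %), coloured by place relative to CpG islands, with the line of equality. The 1047 island CpGs lie mostly near 0 in both libraries, and the points scatter about the line.

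Single CpGs differed between the libraries about as much as the counting of reads alone gives. The root mean square difference was 5.84 points, and binomial counting at the measured depths gives 5.81 points. Pearson's r between the libraries was 0.989 across the 1789 CpGs, which share reads and are not replicates. Whole windows were then examined by size, since they average over CpGs. A 1 kb window counted if its mean differed by 10 points or more over 5 or more CpGs, 80% of them in that direction. None of the 75 eligible windows of these genes reached this size, and 0.953% of 123163 windows in the whole table did (0.58% higher and 0.373% lower). The 75 windows differed by -2.33 to 6.89 points, 48 of them higher and 27 lower.

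Promoter CpGs were measured for 9 of the 10 genes, all but CCNE1. Together these 546 CpGs had 15.3% in the DMSO and 16.0% in the Mdivi-1 library, 0.711 points higher. The counting error is 0.224 if CpGs are independent and 7.53 if reads are shared. Over the 741976 promoter CpGs of the whole table, the difference was 0.275 points. No promoter of the 9 met the rule of size, which 0.293% of 23526 promoters met (0.145% higher and 0.149% lower). The mean was higher in 7 of the 9, beside 58.2% of all measured promoters. Without CCNA1, the difference over the promoter CpGs was 0.415 points, an alternative chosen after seeing the data.

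**Figure D2:**
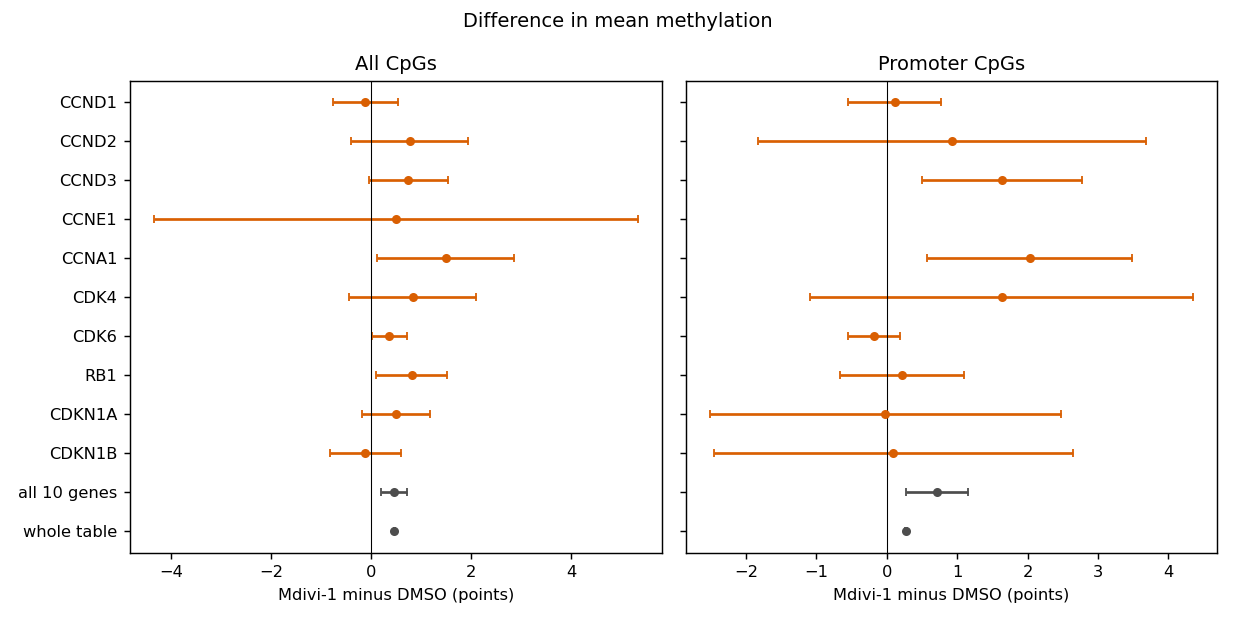
Difference in mean methylation, Mdivi-1 minus DMSO, in percentage points (x axis), for all CpGs (left) and promoter CpGs (right) of each gene, the 10 genes together and the whole table. Points are differences over CpGs and bars are 95% counting intervals (independent CpGs); the lowest gene value over all CpGs is -0.119 in CCND1 and the highest 1.49 in CCNA1.

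The D-type cyclins differed from each other in level far more than between the libraries. CCND1, a D cyclin known for high expression in neuroblastoma, had 358 CpGs on chr11:69453932-69469865, with 46.4% in the DMSO and 46.3% in the Mdivi-1 library (difference -0.119 ± 0.334 points). Its 73 promoter CpGs had 1.25% and 1.37%, and its island of 161 CpGs at the gene start, which runs on into the gene, had 1.41% and 1.62%. Beyond this island, 197 CpGs had 83.2% and 82.8%. CCND1 was therefore unmethylated at its start and heavily methylated over the rest of the gene in both libraries. With pooled reads the difference of CCND1 was -1.23 points. Taken apart, its 73 promoter CpGs then differed by 0.0226 points and the other 285 by 0.363, both of opposite sign. The pooled value of the whole gene is thus not a lower level in either part.

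Near the end of CCND1, 28 shore CpGs just downstream of the gene had 70.8% in the DMSO and 67.9% in the Mdivi-1 library, the class of CCND1 that differed most, at -2.91 ± 1.77 points. The upstream island CpGs of CCND1 differed least, at 0.0884 points. The smallest p of any gene, 0.00316 by the two-sided Fisher test, belonged to a 3′ UTR shore CpG of CCND1 at chr11:69468790, with 73 of 82 reads methylated in the DMSO and 78 of 78 in the Mdivi-1 library. A second CCND1 CpG in the 3′ UTR island, at chr11:69468920, had 17 of 23 and 34 of 35 reads (Fisher exact p = 0.0126). Another CpG of CCND1, at chr11:69461110 in an intronic island, was lower, with 38 of 39 and 44 of 54 reads (Fisher exact p = 0.0224). These 3 CpGs of CCND1 did not share a direction, and each had an adjusted p of 1 in the Fisher test.

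CCND2 stood apart from the other D cyclins in its levels at the gene start. Its 199 CpGs lay on chr12:4380964-4412345 and averaged 29.9% in the DMSO and 30.6% in the Mdivi-1 library (difference 0.767 ± 0.597 points). Of the 245 positions found for CCND2, 153 were also annotated to CCND2-AS1, its divergent antisense transcript. The 40 promoter CpGs of CCND2 had 32.0% and 33.0%, and this promoter difference ran from -0.971 points at a minimum of 30 reads to 5.13 points at 5 reads. In the island at the gene start, 62 CpGs had 41.2% and 40.4%, and single CpGs ranged from 0% to 96.3% in the DMSO and from 0% to 100% in the Mdivi-1 library. Adjacent CpGs of this island could be almost bare or almost fully methylated. This profile recurred in the other library, with r = 0.956 across the 62 CpGs, which share reads.

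The class of CCND2 that differed most was its exonic island sequence, where 15 CpGs had 51.1% and 45.3%. The difference was -5.80 ± 2.33 points, or ± 10.5 with shared reads. In it, 11 CpGs were lower and 3 higher. The shore CpGs of CCND2 that lay in an intron of CCND2-AS1 alone differed least, at -0.0410 points. A window of 16 intronic CpGs at chr12:4399336-4399999 lay in the other direction, at 29.2% and 35.3%, a difference of 6.15 points with 11 CpGs higher. It holds the CCND2 CpG at chr12:4399956, with 6 of 31 and 25 of 51 methylated reads (Fisher exact p = 0.00961, adjusted p = 1). The CCND2 CpG of smallest p was at chr12:4387568 in an intronic shelf, with 4 of 47 and 18 of 62 reads (Fisher exact p = 0.00858). Values within CCND2 thus went in both directions, and the windows stayed below the 10 points of the rule.

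CCND3 had 211 CpGs on chr6:41903173-42018627, with 35.1% in the DMSO and 35.8% in the Mdivi-1 library (difference 0.745 ± 0.403 points). Of the 236 positions found for CCND3, 70 were also annotated to another gene. The annotated promoters of CCND3 belong to start sites far apart, so their mean of 43.4% and 45.0% joins unlike stretches. The island of the inner start sites had 1.38% and 1.51% over 60 CpGs. The island at the outer start, shared with the divergent gene TAF8, had 2.83% and 2.45% over 18 CpGs. Upstream of it a shore of 25 CpGs was heavily methylated, at 93.7% and 95.2%. The promoter difference of CCND3 was 1.64 ± 0.579 points, or ± 9.43 with shared reads, while its 2 islands differed by 0.127 and -0.378 points. Pooled reads gave 3.13 points for the CCND3 promoter.

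Among the classes of CCND3, intronic shore CpGs differed most, with 66 CpGs at 32.8% and 34.9% (2.11 ± 0.808 points). This class ran on to chr6:42018627, past the upstream shore, so not all of it lies in introns of CCND3. The 54 island CpGs in its 5′ UTR differed least, at 1.89% and 1.89%. The CCND3 CpG of smallest p, at chr6:42015979, had 0 of 55 reads in the DMSO and 8 of 70 in the Mdivi-1 library (Fisher exact p = 0.00906, adjusted p = 1).

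**Figure D3:**
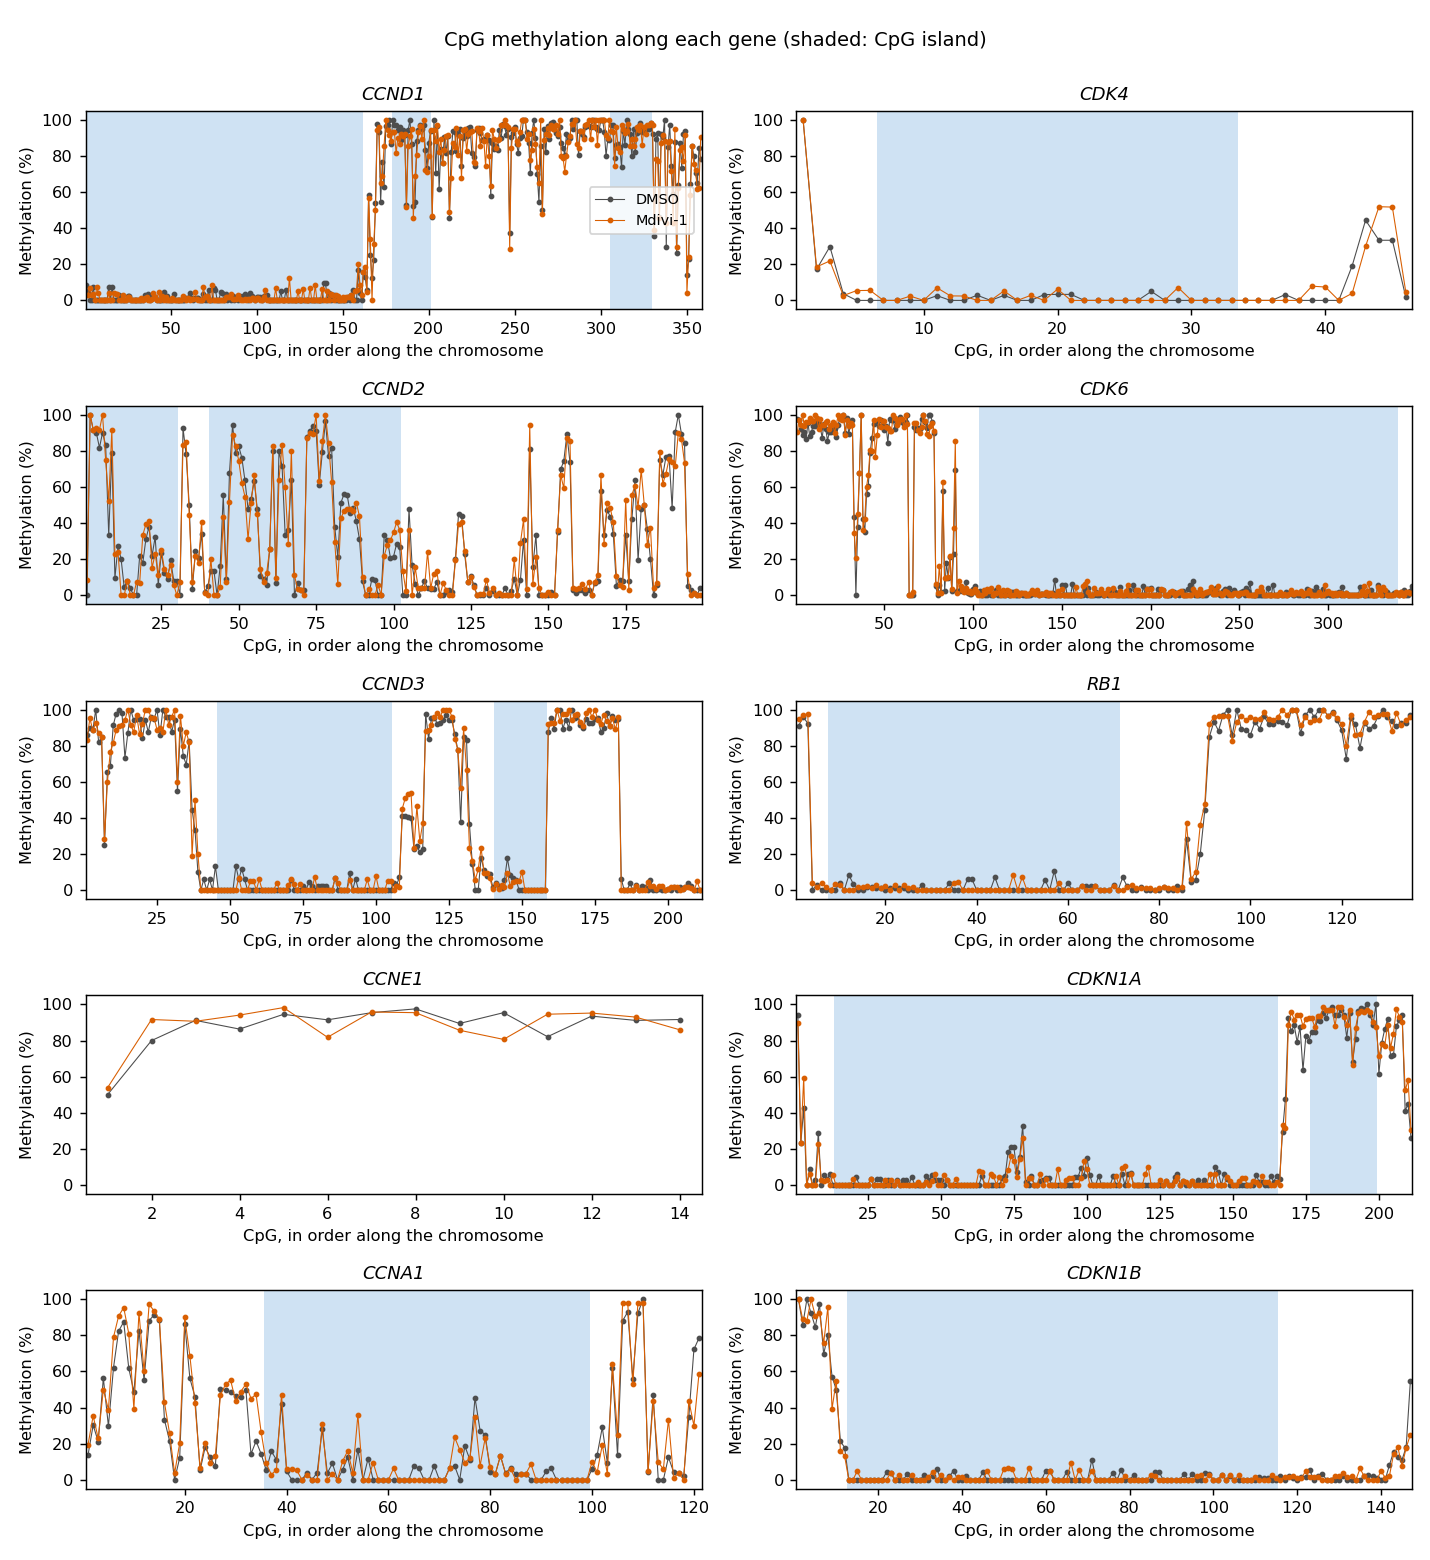
Methylation (y axis, %) at each measured CpG of the 10 genes in order along the chromosome (x axis, CpG number, not to genomic scale), in the DMSO library (grey) and the Mdivi-1 library (orange); blue shading marks CpG islands. The 2 lines follow each other through stretches of low and of high methylation, and CCND2 alone has an island at its start with levels from 0% to over 90%.

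CDK4 and CDK6, the catalytic partners of the D cyclins, were nearly unmethylated at their starts. CDK4 had 46 CpGs on chr12:58141970-58147889, with 6.72% in the DMSO and 7.56% in the Mdivi-1 library (difference 0.831 ± 0.650 points). Its island of 27 CpGs had 0.858% and 1.32%. The 18 promoter CpGs had 7.53% and 9.16%, a difference of 1.63 points that did not exceed the 95% counting interval, as the counting error was 1.39. That difference ran from 0.445 points at a minimum of 5 reads to 5.23 points at 30 reads. Over all CpGs, CDK4 changed sign to -0.0395 points when CpGs of other genes were left out. Of its classes, the upstream island of CDK4 differed most, at 0% and 1.43% over 5 CpGs (1.43 ± 1.65 points). In it, 1 CpG was higher and 4 were equal, at mean coverages of 12.4 and 14.4 reads. The 5′ UTR island of CDK4 differed least, at 1.26% and 1.02%. The CDK4 CpG of smallest p was lower in Mdivi-1, with 5 of 26 and 2 of 51 reads at chr12:58146822 (Fisher exact p = 0.0400), whereas the next, at chr12:58147266, was higher, with 14 of 42 and 27 of 52 reads.

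CDK6 had 347 CpGs on chr7:92237377-92466843, with 20.6% in the DMSO and 21.0% in the Mdivi-1 library (0.365 ± 0.175 points, and 1.90 points with reads pooled over CpGs). Of the 348 positions found for CDK6, 127 were also annotated to another gene, and without such CpGs the difference was 0.660 points. Of the 347 CpGs, 145 were annotated to the CDK6 promoters. These promoter CpGs had 1.33% in the DMSO and 1.15% in the Mdivi-1 library, and all 145 were under 10% when the reads of both libraries were joined. The island of 236 CpGs at the start had 1.15% and 1.18%. It was the island with the most measured CpGs among the 10 genes. The body of CDK6 outside islands had 77.2% and 77.4% over 40 intronic CpGs, the 3′ UTR 92.8% and 95.6% over 31 CpGs.

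The 3′ UTR of CDK6 was 2.86 ± 0.784 points higher with Mdivi-1, or ± 4.12 with shared reads. Among its 31 CpGs, 20 were higher and 10 lower. Over the whole table, 3′ UTR CpGs were 0.705 points higher. The class of CDK6 with the largest absolute difference was its exonic sequence outside islands, where 7 CpGs had 94.7% and 91.7%, a difference of -3.04 ± 2.31 points. Intronic island CpGs of CDK6 differed least, by 0.00866 points. One intronic CpG at chr7:92262971 had 0 of 35 reads methylated in the DMSO and 9 of 44 in the Mdivi-1 library (Fisher exact p = 0.00379, adjusted p = 1). Like every count of 0 methylated reads given here, it allows up to 3 reads by counting alone, here 3 of 35.

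CCNE1, the cyclin that activates CDK2 at the end of G1, was poorly covered: 14 CpGs were measured on chr19:30303633-30315075 and none of its promoter. They averaged 87.9% in the DMSO and 88.4% in the Mdivi-1 library, with a difference of 0.491 points and a counting error of 2.47. Its 6 shelf CpGs in introns had 92.8% and 92.7%. Its 6 CpGs in the 3′ UTR had 90.6% and 89.2%. The state of the CCNE1 promoter is not analysed here.

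CCNA1, an A-type cyclin used mainly in germ cells, differed most of the 10 genes as a mean over its CpGs at 10 reads. It did not with pooled reads, a minimum of 5 reads, the gene column only or CpGs of other genes left out. With the gene column only, CCNA1 differed by 0.588 points and RB1 by 1.14. With CpGs of other genes left out, CDKN1A differed more, by 1.78 points. The 121 CpGs of CCNA1 on chr13:37004500-37016877 averaged 22.8% in the DMSO and 24.2% in the Mdivi-1 library (difference 1.49 ± 0.699 points, or ± 9.79 with shared reads). With minimums of 5 and 30 reads the CCNA1 difference was 0.655 and 3.03 points. The 100 promoter CpGs had 19.4% and 21.4%, a difference of 2.03 ± 0.742 points. The island over the start had 6.10% and 5.97% over 64 CpGs, differing by -0.132 ± 0.827 points. The difference lay in the shore upstream of the CCNA1 island, at chr13:37004500-37005521.

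In that CCNA1 shore, 35 CpGs averaged 44.0% in the DMSO and 49.9% with Mdivi-1. The levels differed by 5.93 ± 1.45 points, or ± 8.67 with shared reads. Methylation was higher with Mdivi-1 at 29 CpGs and lower at 6. The CpGs ranged from 0% to 91.5% in the DMSO and from 3.57% to 97.4% in the Mdivi-1 library. The 23 CpGs of the CCNA1 shore farthest from the start, at chr13:37004500-37004991, had 50.5% and 55.9%, with 20 higher and 3 lower. Among them, the CpG at chr13:37004722 had 52 of 59 and 74 of 76 methylated reads (Fisher exact p = 0.0415), and the one at chr13:37004621 had 21 of 34 and 34 of 42 (Fisher exact p = 0.0755). The CCNA1 shore CpG at chr13:37005490, near the island, rested on few reads, with 2 of 14 and 9 of 20 methylated. The 13 shore CpGs labelled upstream, which include it, had mean coverages of 82.1 and 97.1 reads. They had 29.6% in the DMSO and 36.1% in the Mdivi-1 library. With at least 20 reads required, 32 CpGs of the shore remained and the CCNA1 difference was 4.33 points. Pooled reads gave 4.07 points, and both values were computed after seeing the data.

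Other parts of CCNA1 did not all follow its shore. Its 7 intronic CpGs outside islands had 10.3% and 14.5%, a difference of 4.24 ± 2.76 points, with 4 higher and 3 lower. Its CpG of smallest p, at chr13:37016860 in the 3′ UTR, was lower in Mdivi-1, with 13 of 18 and 6 of 20 methylated reads (Fisher exact p = 0.0217, adjusted p = 1). The 37 island CpGs upstream of the CCNA1 start differed least, at 5.48% and 5.57%.

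The inhibitors CDKN1A and CDKN1B were both low at their islands. CDKN1A, the p21 gene and a main target of p53, had 211 CpGs on chr6:36643855-36655008, with 20.2% in the DMSO and 20.7% in the Mdivi-1 library (difference 0.498 ± 0.348 points). Of the 217 positions found for CDKN1A, 149 were also annotated to another gene, 146 of them in the first part of CDKN1A to the noncoding transcript DINOL. Without the CpGs of other genes, the CDKN1A difference was 1.78 points. The island at the 5′ end had 2.25% and 2.10% over 152 CpGs. A second, inner island in an exon of CDKN1A was at the opposite extreme, with 92.03% and 92.8% over 23 CpGs. The 18 promoter CpGs of CDKN1A had 11.9% and 11.9%.

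Outside the 5′ island, CDKN1A was 2.18 ± 0.981 points higher in the Mdivi-1 library, or ± 9.72 with shared reads. These 59 CpGs had 66.4% and 68.6%. The class of CDKN1A that differed most was the 3′ UTR shore, with 5 CpGs at 83.3% and 88.2%, 4 of them higher. Its intronic island CpGs differed least, by -0.0721 points. Among CDKN1A windows of 5 or more CpGs, the largest difference was at chr6:36651811-36651995, where 15 CpGs had 89.5% and 93.9%. The CDKN1A CpG of smallest p, at chr6:36654980, had 52 of 116 and 69 of 119 methylated reads (Fisher exact p = 0.0506).

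CDKN1B, the p27 gene, had 147 CpGs on chr12:12868681-12874296, with 7.54% in the DMSO and 7.43% in the Mdivi-1 library (difference -0.115 ± 0.362 points). Its island had 1.01% and 1.06% over 103 CpGs. The 28 promoter CpGs had 31.0% and 31.1%, because the annotated promoter reaches from the island into a methylated shore of 12 CpGs at 71.3% and 71.3%. Along this CDKN1B shore, single CpGs ran from 17.9% to 100% in the DMSO and from 13.2% to 100% in the Mdivi-1 library. The upstream shore class of CDKN1B differed most, at 45.3% and 43.8% over 5 CpGs, and its 5′ UTR island least, at 1.16% and 1.32%. No CDKN1B window of 5 or more CpGs differed by more than 1.08 points. The CDKN1B CpG of smallest p, at chr12:12872202, had 0 of 87 and 5 of 104 reads (Fisher exact p = 0.0642).

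RB1, the target of the D-cyclin kinases, had 135 CpGs on chr13:48876604-49050313. They averaged 34.6% in the DMSO and 35.4% in the Mdivi-1 library (difference 0.813 ± 0.363 points, or ± 10.3 with shared reads). For RB1, pooling the reads over CpGs gave 3.68 points and a minimum of 30 reads gave 1.55. The island at the RB1 promoter had 1.32% and 0.975% over 64 CpGs, and the 48 promoter CpGs had 6.98% and 7.19%. Of the 145 positions found for RB1, 125 were also annotated to another gene, most of them (95) to the divergent transcript RB1-DT. Its intronic CpGs outside islands had 92.4% and 93.6% over 22 CpGs. RB1 thus had an unmethylated start and a methylated body in both libraries.

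RB1 is an imprinted gene: an island inside it, known as CpG 85, is methylated on the maternal copy and lies in a processed pseudogene, PPP1R26P1. No position of the table was labelled as inside this island, and the labels give no island coordinates. Of the shore of CpG 85, 12 RB1 CpGs at chr13:48895050-48895267 had 93.0% in the DMSO and 96.8% with Mdivi-1. The levels differed by 3.76 ± 1.06 points, or ± 3.92 with shared reads. In this RB1 shore, 10 CpGs were higher, 0 lower and 2 equal, the last 2 at 100% in both libraries. DMSO levels ran from 86.0% to 100% and Mdivi-1 levels from 94.3% to 100%. The 12 CpGs lie close together, so a single read can cover several of them. The shore of the second island, CpG 42, had 93.4% and 93.9% over 7 CpGs of RB1.

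Next to these, 121 CpGs inside RB1 that the table gives to PPP1R26P1 alone, which the rule does not include, had 92.2% and 94.3%, with 77 higher and 42 lower. Among RB1 windows of 5 or more CpGs, the one of largest difference lay in the shore just inside the gene, at chr13:48879057-48879381. Its 5 CpGs had 28.2%, 4.65%, 5.56%, 20% and 44.4% in the DMSO library. In the Mdivi-1 library the same 5 RB1 CpGs had 37.2%, 5.88%, 10.2%, 36.2% and 47.8%. All 5 were higher, and the mean difference of 6.89 points had a counting error of 3.77. The RB1 CpG of smallest p was at chr13:49019597, with 50 of 56 and 77 of 78 methylated reads (Fisher exact p = 0.0211, adjusted p = 1). The classes of RB1 that differed most and least were its shore in an intron of RB1-DT, at 31.9% and 34.4% over 6 CpGs, and its 9 upstream island CpGs, at 0.794% and 0.926%.

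Across the 10 genes, the difference was described by place relative to islands. The 1047 island CpGs had 10.9% in the DMSO and 10.9% with Mdivi-1, differing by -0.0433 ± 0.140 points. The 486 shore CpGs had 46.7% and 48.1%, a difference of 1.41 ± 0.320 points, or ± 9.89 with shared reads. With pooled reads the shores had 37.9% and 38.8%. Over the whole table, shores differed by 0.463 points as a mean over CpGs. CCNA1 carried part of this: without it the shores of the other 9 genes had 46.8% and 47.9%, a difference of 1.06 points. The 66 shelf CpGs had 69.5% and 69.7%, and the 190 CpGs outside islands and their flanks 67.1% and 68.0%.

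By annotated region, the 228 CpGs of 5′ UTRs had 3.92% in the DMSO and 3.74% in the Mdivi-1 library. The 154 upstream CpGs had 21.3% and 22.1%, and the 210 exonic CpGs 30.4% and 29.97%. The 810 intronic CpGs had 30.004% and 30.7%, and the 107 CpGs of 3′ UTRs 83.9% and 84.7%. Against the whole table, where islands had 28.9% and 5′ UTRs 15.4% in the DMSO library, the islands and 5′ UTRs of these genes were less methylated. Their 3′ UTRs, against 66.2% in the whole table, were more methylated.

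**Figure D4:**
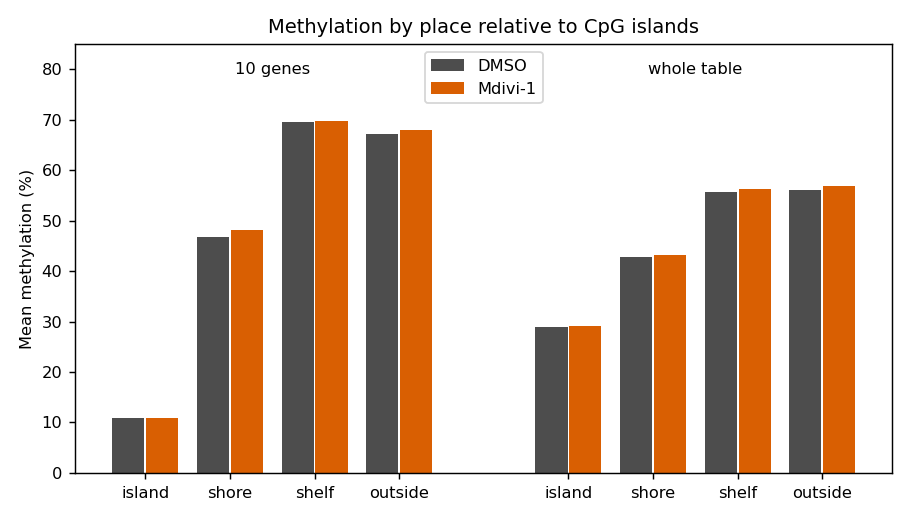
Mean methylation (y axis, %) of island, shore, shelf and other CpGs of the 10 genes (left) and of the whole table (right) in the DMSO library (grey) and the Mdivi-1 library (orange), with no error bars because each bar is 1 library. Islands of the 10 genes stand at 10.9% in both libraries, below the 28.9% and 29.2% of the whole table.

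The other genes of the G1/S pathway were taken from a list of 40 by role, and all 40 had measured promoters. None met the rule of size for promoters, which 0.293% of all promoters met. The mean was higher in 21 and lower in 19, with a median difference of 0.0663 points, beside 0.200 points over 23526 promoters. Values ran from -1.37 to 2.71 points.

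Among cyclins, kinases and activators, 5 of 8 promoters were higher. CCNA2, the A cyclin of somatic cells, had 10.7% in the DMSO and 11.6% in the Mdivi-1 library, and CDK3 had 71.1% and 72.0%. Among the INK4 and CIP/KIP inhibitors, 2 of 5 were higher: CDKN2B (p15) had 0.774% and 2.14%, and CDKN1C (p57) 8.27% and 10.3%. Among pocket proteins, E2Fs and their DP partners, 6 of 12 were higher. RBL1 (p107), a relative of RB1, had 11.5% and 14.2%, the largest difference of the list as a mean over CpGs, at 2.71 ± 1.17 points. With pooled reads RBL1 differed by 2.36 points and E2F4, next below, by 5.67. E2F4, a repressive E2F, had 18.4% and 20.8%. Among genes of cyclin and inhibitor turnover, 6 of 11 were higher. RBX1, a RING subunit of cullin ubiquitin ligases, had 16.5% and 18.8%, whereas AMBRA1, the adaptor that directs D cyclins to degradation, had 8.58% and 7.20%. Of 4 upstream regulators 2 were higher. MDM4, a p53 inhibitor, had 11.3% and 12.8%, and MDM2, the ligase for p53, had 7.04% and 6.73%.

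**Figure D5:**
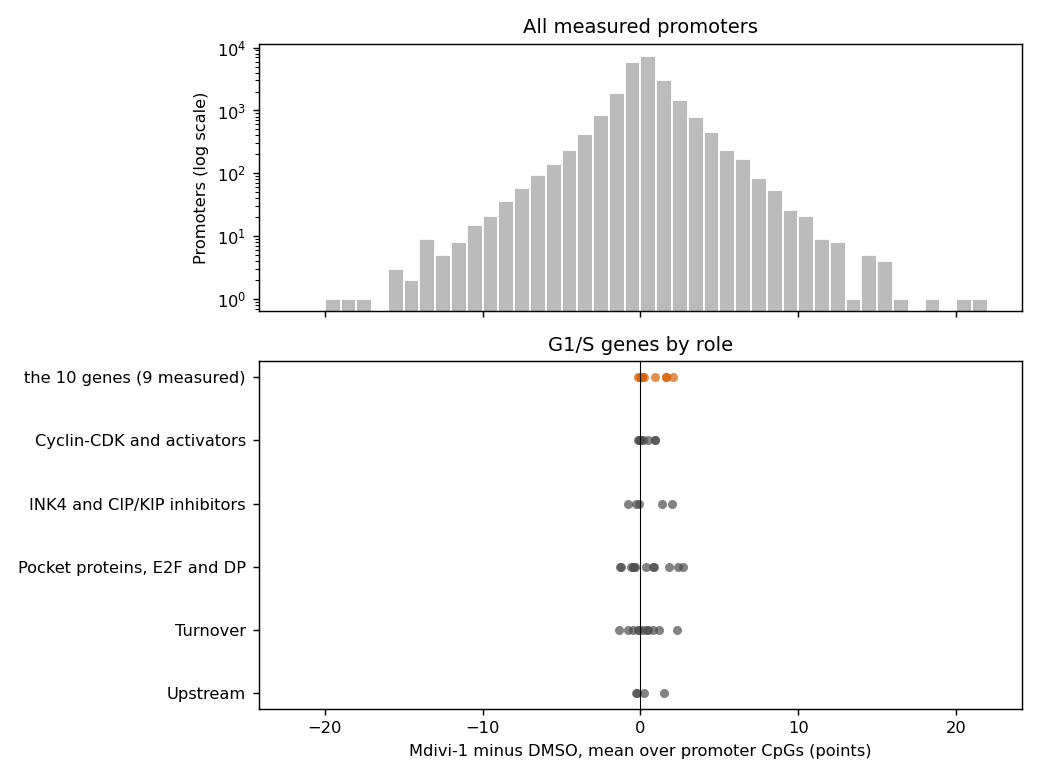
Top, number of measured promoters (log scale) by difference in mean methylation, Mdivi-1 minus DMSO, in bins of 1 point; bottom, the 9 measured promoters of the 10 genes and the 40 other G1/S promoters by role, 1 point each. All 49 points lie between -1.37 and 2.71 points, near the centre of all promoters.

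The label of the cells was set against promoters of marker genes. Among adrenergic neuroblastoma markers, HAND2, GATA3, ISL1 and DBH had promoter levels of 0.802% to 1.23% in the DMSO library, while PHOX2A had 30.2% and TH 53.7%. In the Mdivi-1 library, PHOX2A had 29.98% and TH 54.5%. Among markers of other cell types, COL1A2 had 94.5% and 95.5%, and KRT5, a keratin of basal epithelium, had 4.12% and 5.27%. COL1A1 had 17.9% and 19.1%, and GFAP 47.97% and 51.7%. Methylation of a marker does not measure its expression, so the mix of cells was not tested.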

How the data were processed

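Per the labels' protocols, genomic DNA was captured with the SureSelectXT Methyl-Seq kit and read on a NovaSeq sequencer. Reads were aligned with BSMAP to hg19, per the submitters' processing notes. The authors deposited a methylated fraction and a coverage for 2773807 positions. The coverage columns deposited are treated as estimated counts, as some are not whole. Other deposited columns were used for annotation only.

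The deposited DMSO fractions are whole-read ratios only after coverage is multiplied by 1.23 and rounded, as read from the values. Whole methylated reads were recovered by inverting this, and 10795 positions (0.389%) were left out. CpGs needed 10 reads in both libraries. Fisher exact tests used Benjamini-Hochberg adjustment (0.05) and at least 20 points. Counting errors are binomial. The scripts were tested on simulated data. The genes, lists and rules were chosen with earlier results of these data known. Named were all 10 genes with their promoter, the Region and island classes of at least 5 CpGs that differed most and least, up to 3 CpGs of smallest p, the window of largest difference, and the 2 genes of largest promoter difference in each pathway role. RefSeq (GRCh38.p14) supplied sequences. Alternatives covered coverage, pooling, thinning, assignment and rule sizes. Python 3.11.15, NumPy 2.4.6, pandas 2.3.3, Numba 0.67.0 and Matplotlib 3.10.9 were used. Some listed marker genes are not reported here.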

Additional observations from a re-analysis of the deposited data

How the results depend on the processing

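No paired analysis was possible because each group held 1 library. No CpG of the 10 genes was called under any of the alternatives run, and no window met the rule except when the mean difference was lowered to 5 points, where 2 did. Over all CpGs the difference was 1.11 points with pooled reads, and under the other alternatives it lay between 0.371 and 0.581 points. Pooling weights each CpG by its depth in each library, so a pooled value can also shift where depth changes unevenly. Mean coverage was 38.7 reads in the DMSO and 44.9 in the Mdivi-1 library in islands. It was 45.2 and 57.0 outside islands and their flanks. The part of depth in the pooled values was not tested. Over all CpGs, CCNE1 changed sign at minimums of 20 and 30 reads, with pooled reads and with thinning, CDK4 with the gene column only or with CpGs of other genes left out, and CDKN1B with the deposited fractions. At promoters, signs changed for CCND2 and CDKN1B at 20 reads, CCND1 and CCND2 at 30 reads, CDK6 and CDKN1A with pooled reads, and CDKN1A and CDKN1B with thinning or the deposited fractions. At 5 reads no promoter changed sign, but 5 of 9 moved by over 1.5 times, CCND2 to 5.13 points. Pooled reads moved 6 genes over all CpGs by over 1.5 times with the same sign, among them CCND1 to -1.23, CDK6 to 1.90 and RB1 to 3.68 points. For CCND1, pooled reads gave 0.0226 points in promoter CpGs and 0.363 in the others, both of opposite sign to -1.23. Means over genes and promoters were not tested, and neither was the cause of the shifts. At median coverage a single CpG needed a difference of 50 points to be called.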
